A study of Mus musculus with 4 samples.

Results

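The clustered histone genes are the rows of the count table whose symbol begins with Hist1h, Hist2h, Hist3h or Hist4h, and 68 of the 24015 genes in the table met that rule. They comprise 6 H1 genes, 18 H2A genes, 19 H2B genes, 12 H3 genes and 13 H4 genes. By cluster, 54 belong to Hist1 on chromosome 13, 10 to Hist2 on chromosome 3, 3 to Hist3 on chromosome 11 and 1 to Hist4 on chromosome 6. All 68 were matched by symbol to the GENCODE mouse annotation.

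H2A, H2B, H3 and H4 form the protein core of the nucleosome, and H1 binds the linker DNA between nucleosomes. Most clustered genes are replication-dependent: they are transcribed in S phase, and their mRNAs end in a short stem-loop that is bound by the protein SLBP in place of a poly(A) tail. Some of them also carry a poly(A) signal further downstream and give polyadenylated transcripts in cells that have left the cell cycle. Variant histones such as H3.3 and H2A.Z come from genes outside the clusters, whose mRNAs carry ordinary poly(A) tails.

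The study asked how the loss of 1 copy of Arid1b, a subunit of the BAF chromatin remodelling complex, changes gene expression in the mouse. Cerebellum was micro-dissected from C57BL/6N mice at 140 to 150 postnatal days, and 2 libraries came from heterozygotes for Arid1b (Het) and 2 from wild type littermates (WT), with 1 male and 1 female of each genotype. The labels do not give the part of Arid1b that was deleted, and they do not name individual animals, so the p-values measure the spread between libraries. Libraries were made with a kit for stranded mRNA, which selects RNA with a poly(A) tail, and single-end reads of 100 bases were counted per gene. A gene counted here therefore had RNA that passed poly(A) selection, which does not by itself show that the RNA was polyadenylated.

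Library totals were 20287016 counts in the male Het, 16453759 in the male WT, 15950899 in the female Het and 20616219 in the female WT. A gene with no count could lie at up to 0.146 to 0.188 CPM (counts divided by the library total and scaled to 1000000), the value of 3 counts in these libraries, which covers counting error only. Arid1b itself stood at 52.9 CPM in the male Het and 55.8 in the female Het, against 69.9 in the male WT and 71.0 in the female WT. Its log2 fold change was -0.37 ± 0.11 (SE), and its adjusted p was 0.243 (edgeR quasi-likelihood test, Benjamini-Hochberg). Markers of granule cells (Gabra6, 329 to 502 CPM), Purkinje cells (Pcp2, 132 to 209 CPM) and oligodendrocytes (Mog, 132 to 160 CPM) were present in every library of the labelled tissue. Markers of neighbouring tissue also varied between libraries: the 9 brainstem and midbrain neuron genes summed to 275 and 237 CPM in the male and female Het against 195 and 66.2 in the male and female WT, and the 6 skeletal muscle genes to 156 CPM in the male Het against 5.23 to 10.2 in the other libraries. The 8 choroid plexus genes summed to 2680.5 CPM in the male Het against 1459 to 1546 in the others, and the 7 pituitary genes to 31.5 CPM in the female Het against 3.65 to 6.84. Between genotypes, 12 of 12 granule cell genes (median log2 fold change -0.43, 9 at an unadjusted p under 0.05), 10 of 10 Purkinje cell genes (-0.29, 5) and 9 of 9 endothelial and mural cell genes (-0.55, 7) had fitted values below 0, and 10 of 10 oligodendrocyte genes (0.15, 1) above 0, with 0 called in these 4 lists by edgeR. Over all genes tested, 11.7% passed that unadjusted threshold. Fitted values were also above 0 in 8 of 8 microglia, 5 of 5 tested skeletal muscle and 7 of 8 choroid plexus genes. The same held for 8 of 9 brainstem and midbrain neuron genes and 4 of 6 oligodendrocyte precursor genes. Below 0 were 6 of 8 astrocyte and Bergmann glia, 3 of 5 tested pituitary and 2 of 2 tested red blood cell genes. The part of these tissue differences in the results on histone genes was not tested.

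The 3′ ends of the annotated transcripts show how the members are built. The stem-loop was searched as the 16-base pattern GGNNCTTTTCAGNNCC, where N is any base, on the transcript strand of each GENCODE transcript of a gene, and the poly(A) signal as AATAAA or ATTAAA in a transcript's last 40 bases. The pattern was found in 35 of 68 members (51.5%) and in 11 of 21810 other protein-coding genes (0.0504%). The signal was found in 17 of 68 members (25%) and in 16630 of the 21810 other genes (76.2%). A match is a match of letters, and several members are annotated by their coding sequence alone, in which neither feature could be found.

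The following stretches of GENCODE transcripts, 5′ to 3′ with T for U, are the ends of the 5 members of at least 1 CPM that carry both features. In each first line the capitals mark the stem-loop pattern, and in each second line the poly(A) signal.
Hist3h2ba stem-loop: acccaaaGGCTCTTTTCAGAGCCaccttcc
Hist3h2ba signal: atggtattAATAAAtttggttcaattttgg
Hist3h2a stem-loop: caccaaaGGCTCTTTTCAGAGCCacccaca
Hist3h2a signal: atatgcccAATAAAataagagtacgtgtat
Hist1h1c stem-loop: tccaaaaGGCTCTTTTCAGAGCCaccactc
Hist1h1c signal: atgcttctAATAAAaagcgtttagttttca
Hist1h2be stem-loop: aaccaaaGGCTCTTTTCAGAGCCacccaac
Hist1h2be signal: tgttccttATTAAAgcattcctgattga
Hist1h4h stem-loop: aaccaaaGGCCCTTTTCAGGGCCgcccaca
Hist1h4h signal: attttcttATTAAAagagcgaacatgtgtt

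Hist2h2be was the member of this level whose annotated end has the signal but not the stem-loop pattern, and Hist1h3d and Hist1h4d are shown as genes of the low H3 and H4 classes that have the stem-loop pattern and no signal at the end.
Hist2h2be signal: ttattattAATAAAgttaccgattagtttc
Hist1h3d stem-loop: ccccaaaGGCTCTTTTCAGAGCCacccccg
Hist1h4d stem-loop: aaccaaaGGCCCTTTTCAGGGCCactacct

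In the 5 members printed with both features, the start of the stem-loop lay 62 bases before the annotated end in Hist1h4h, 185 in Hist3h2ba, 856 in Hist1h1c, 1659 in Hist3h2a and 1877 in Hist1h2be. Over all 25 members with a stem-loop and no signal, the median distance was 53 bases, with a range of 19 to 4900, and 15 of them lay over 50 bases away. The distance in Hist1h4h was thus close to that median, and those in the other 4 were larger.

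Few clustered histone genes were read in poly(A) RNA, and those few took nearly all the counts. The members held 2163 counts in the male Het, 1566 in the male WT, 1465 in the female Het and 2418 in the female WT, or 107, 95.2, 91.8 and 117 CPM. Of 68 members, 22 had no count in any library, 30 had 1 to 9 counts over the 4 libraries together and 16 had 10 or more. Of all 24015 genes, 21.1% had no count, against 32.4% of the members, and 59.3% of genes reached a mean of 1 CPM, against 10.3% of the members. The 7 members that reached it were Hist1h2bc, Hist3h2ba, Hist3h2a, Hist2h2be, Hist1h1c, Hist1h2be and Hist1h4h, and they held 7301 of the 7612 member counts (95.9%).

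By class, H2B dominated. H2B genes summed to 77.2 CPM in the male Het, 66.9 in the male WT, 67.1 in the female Het and 86.9 in the female WT, 72.7% of all member counts. H2A genes summed to 14.98, 15.4, 13.1 and 15.04 CPM in the same order, and H1 genes to 10.99, 9.72, 9.22 and 11.98. H4 genes summed to 3.01, 2.67, 1.63 and 2.91 CPM, and H3 genes to 0.394, 0.425, 0.752 and 0.485. The class sums of H3 rest on 7 to 12 counts a library, and their exact Poisson 95% intervals, which cover counting error only, reached from 0.170 to 1.31 CPM over the 4 libraries. These sums were not divided by transcript length, and they were not proportional to the number of genes: 12 H3 genes gave 37 counts in all, and 6 H1 genes gave 777.

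**Figure D1:**
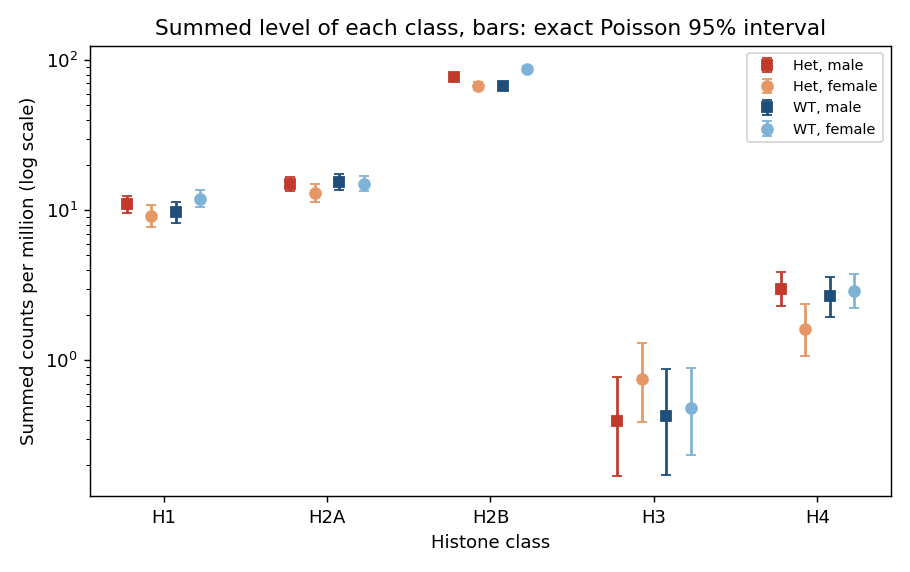
Summed level of each histone class in CPM on a log axis, 1 point per library, with exact Poisson 95% intervals of the count (squares male, circles female). H2B sits between 66.9 and 86.9 CPM in the 4 libraries and H3 between 0.394 and 0.752.

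Among the linker histones, Hist1h1c, which encodes H1.2, stood almost alone. It had 204 counts in the male Het, 150 in the male WT, 134 in the female Het and 234 in the female WT, or 10.1, 9.12, 8.40 and 11.4 CPM, and held 92.9% of the H1 counts. The Het and WT values overlapped. Hist1h1e, which encodes H1.4, had 16, 8, 8 and 12 counts in the same order of libraries (0.789, 0.486, 0.502 and 0.582 CPM). Hist1h1b had 2, 1, 3 and 0 counts and Hist1h1d 1, 1, 0 and 1. Hist1h1t, the testis linker histone, had 2 counts in the female Het and 0 elsewhere, and Hist1h1a had none. For comparison, the replacement linker histone H1f0, which lies outside the clusters, stood at 216 to 263 CPM.

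Among the H2A genes, Hist3h2a held 96.6% of the counts. It had 292 counts in the male Het, 249 in the male WT, 200 in the female Het and 299 in the female WT, or 14.4, 15.1, 12.5 and 14.5 CPM. Both Het libraries lay below both WT libraries, by a margin smaller than the gap between the 2 Het libraries. The Hist3h2a transcript overlaps exons of Trim17 on the same strand and of Gm44313 on the opposite strand in the GENCODE annotation, and 29.8% of its windows of 100 bases recur in those transcripts, so its count depends on how reads in shared sequence were assigned. The other 17 H2A genes together held the rest: Hist1h2ac had 7, 1, 0 and 4 counts, Hist1h2ae 2, 2, 2 and 1, and Hist2h2ab 1, 1, 1 and 3. Of the 18 H2A genes, 8 had no count in any library.

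Among the H2B genes, 4 reached 1 CPM. Hist1h2bc had 693 counts in the male Het, 470 in the male WT, 451 in the female Het and 779 in the female WT, or 34.2, 28.6, 28.3 and 37.8 CPM. The female WT and the male Het were the high libraries, so the genotypes overlapped. Hist1h2bc took 31.4% of all member counts although its 1156-base annotated transcript of 2 exons contains neither the stem-loop pattern nor a poly(A) signal in its last 40 bases.

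Hist3h2ba had 514 counts in the male Het, 302 in the male WT, 327 in the female Het and 629 in the female WT, or 25.3, 18.4, 20.5 and 30.5 CPM. It showed the same high libraries as Hist1h2bc, with the genotypes again overlapping. Hist2h2be had 253, 249, 225 and 279 counts in the same order, or 12.5, 15.1, 14.1 and 13.5 CPM, and its libraries were ordered otherwise, with the male WT highest and the male Het lowest.

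Hist1h2be had 75, 64, 50 and 90 counts, or 3.70, 3.89, 3.13 and 4.37 CPM, and both Het libraries lay below both WT libraries. Its longest annotated transcript overlaps that of Hist1h1e on the same strand, so reads there could have been given to either gene or to none. Of the H2B genes below 1 CPM, Hist2h2bb had 10, 6, 1 and 5 counts, Hist3h2bb-ps, annotated as a processed pseudogene, 6, 3, 3 and 7, and Hist1h2bg 4, 2, 2 and 0.

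**Figure D2:**
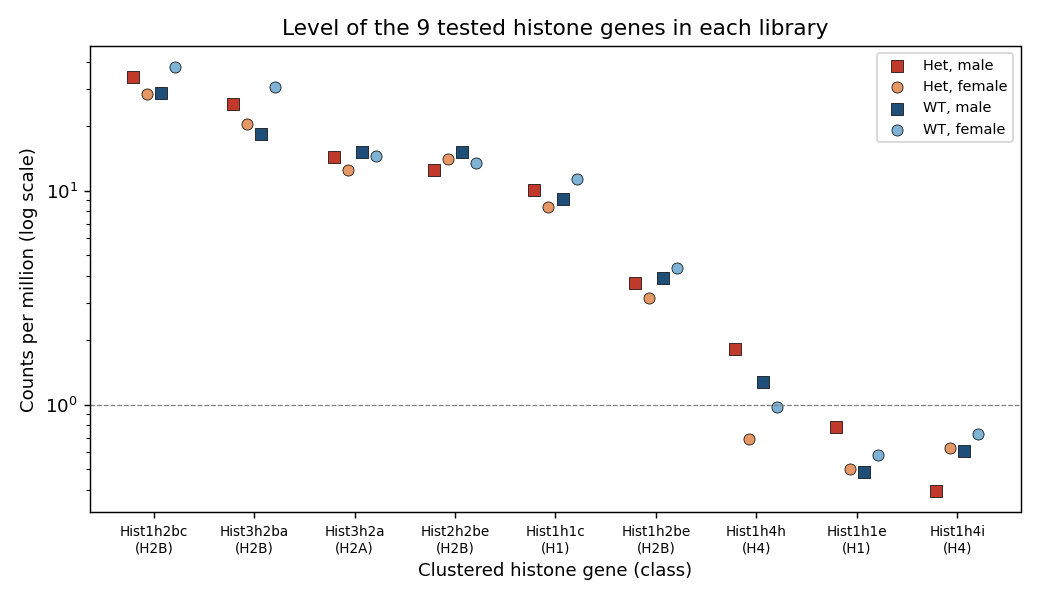
CPM of the 9 tested members in each library on a log axis, with squares for male and circles for female libraries, red shades for Het and blue shades for WT, and a dashed line at 1 CPM. Hist1h2bc and Hist3h2ba are highest in the female WT and the male Het, while the libraries of Hist3h2a and Hist2h2be lie closer together.

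The H3 genes were hardly read at all. Hist1h3d had 7 counts in the male Het, 3 in the male WT, 4 in the female Het and 4 in the female WT, and was the only H3 gene with 10 or more counts in all. Hist2h3b had 1, 2, 5 and 0 counts, and Hist1h3e and Hist1h3f 4 counts each over the 4 libraries. Of the 12 H3 genes, 6 had no count. The share of their windows of 100 bases that recur in other transcripts ran from 20.4% in Hist1h3d to 100% in Hist2h3c1 and Hist2h3b. Their counts therefore depend on how reads in shared sequence were assigned. The variant gene H3f3b, which encodes H3.3, stood at 330 to 445 CPM in the same libraries.

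Of the H4 genes, Hist1h4h led with 37 counts in the male Het, 21 in the male WT, 11 in the female Het and 20 in the female WT, or 1.82, 1.28, 0.690 and 0.970 CPM. Both male libraries lay above both female libraries, and the genotypes overlapped. Hist1h4i had 8, 10, 10 and 15 counts (0.394, 0.608, 0.627 and 0.728 CPM), Hist1h4k 5, 2, 0 and 9, and Hist1h4d 5, 3, 2 and 5. Clustered H4 genes encode 1 shared protein, and 38.5% of the windows of Hist1h4h and 15.1% of those of Hist1h4i recur in other transcripts, largely those of H4 copies.

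Levels of different genes were compared per kilobase of the longest GENCODE transcript. Hist3h2ba was highest at 38.6 ± 8.81 CPM per kb (SD, n = 4) and Hist1h2bc next at 27.9 ± 3.99, with overlapping libraries. Hist3h2a (6.59 ± 0.521), Hist1h1c (6.24 ± 0.817) and Hist2h2be (5.27 ± 0.424) followed, each overlapping its neighbour. Hist1h4h stood at 2.53 ± 1.03 and Hist1h2be at 1.51 ± 0.203, which also overlapped. Against the variant histone genes on the same scale, H3f3b (151 ± 20.9), H1f0 (114 ± 9.99) and H2afz (84.7 ± 6.47) lay above every clustered gene in each library, and Hist3h2ba overlapped H2afv (31.7 ± 2.90). All 68 members together came to 94.7 CPM per kb, against 501 for 17 variant genes.

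**Figure D3:**
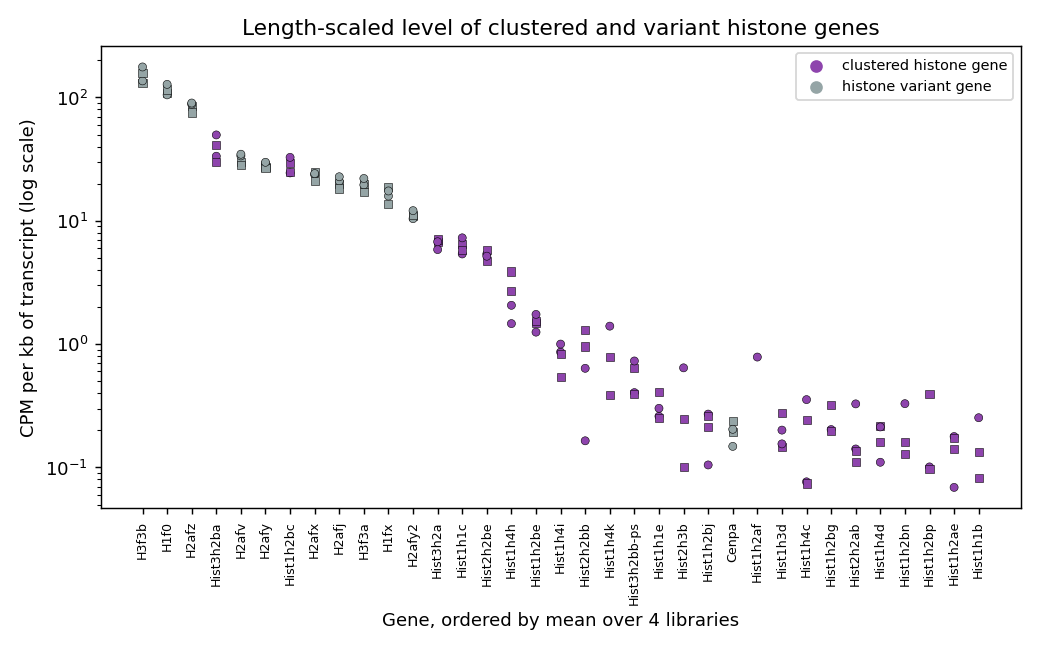
CPM per kb of the longest GENCODE transcript on a log axis for clustered (purple) and variant (grey) histone genes with a mean of at least 0.1 CPM per kb, 1 point per library (squares male, circles female), in order of their mean. Libraries at 0 are not drawn. The highest purple points, those of Hist3h2ba, reach 49.7, below the lowest points of H3f3b (131), H1f0 (105) and H2afz (75.6).

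The annotated ends and the counts were then set side by side. Of the 17 members with a poly(A) signal near the annotated end, 6 reached 1 CPM and together all 17 held 65.5% of the member counts. Of the 51 without one, only Hist1h2bc reached it. Of the 25 members with the stem-loop pattern and no signal, none reached 1 CPM, 11 had no count and all 25 held 1.75% of the counts, 133 reads. The signal was not sufficient for a high count: Hist1h2ae had 7 counts in all and Hist1h4j 3, although each carries both features. Hist4h4 also matched both and had 4 counts, but its signal starts only 9 bases before the annotated end. These shares describe letters and counts in 1 annotation, and no test was made over the members. Members with the signal also had fewer windows of 100 bases that recur in other transcripts. The median was 19.0% of windows with the signal and 46.4% without it, and the part of this difference in the counts was not tested.

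Near-identical copies and overlapping transcripts limit what these counts can show. A member's windows of 100 bases, the read length, were looked up in all other GENCODE transcripts on both strands. The share that recurred ranged from 0 to 100%, with a median of 35.9%. The look-up did not separate copies elsewhere from transcripts that overlap the member itself. Hist2h2bb, for example, shared all its windows, and only with Gm20628 and Gm42743, which overlap its exons. Of the 28 members with at least 50% of their windows shared, 17 had no count and none reached 1 CPM. Of the 40 with fewer shared windows, 5 had no count. The median share was 82.0% among the 22 members without a count and 10.3% among the 7 of at least 1 CPM. Hist2h2aa1, Hist2h2aa2 and Hist2h3c1, whose windows were all shared, had no count, and the sources used here do not say how reads with several matches were treated. In such genes an absence of counts does not show an absence of RNA. Of the members under 1 CPM, 5 had no shared window: Hist1h1b had 6 counts, Hist1h4d 15, Hist1h1t 2, Hist2h4 5 and Hist1h1a 0.

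**Figure D4:**
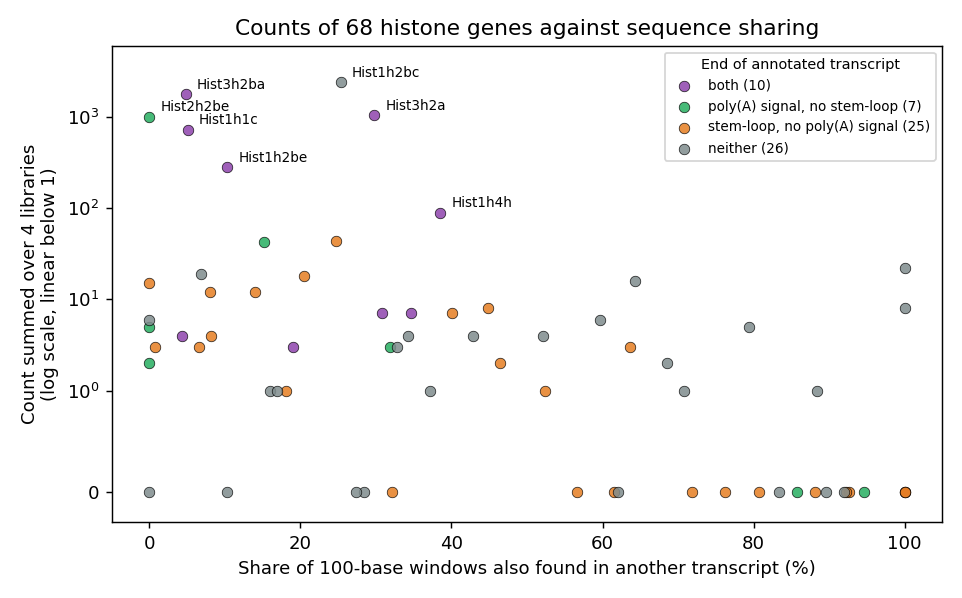
Count of each of the 68 members summed over the 4 libraries (log axis, linear below 1) against the share of its windows of 100 bases found in another transcript, coloured by the features of its annotated end. The 7 named members have shares of up to 38.5%, and 17 of the 22 members at a count of 0 have shares of at least 56.6%.

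Many H2A and H2B genes lie head to head and share the stretch between their starts. RefSeq gene positions, with strands from GENCODE and at most 1000 bases between the starts, gave 13 such pairs, 12 of them an H2A gene with an H2B gene, and the distance was 164 to 608 bases. The 3 pairs with a member of at least 1 CPM were one-sided in poly(A) RNA. Hist1h2bc had 2393 counts over the 4 libraries and its partner Hist1h2ac, which begins 240 bases away, had 12. Hist2h2be had 1006 and Hist2h2ac, 192 bases away, had 1. Hist3h2a had 1040 and Hist3h2bb-ps, 173 bases away, had 19. Hist1h2ac carries the stem-loop pattern and no poly(A) signal near its annotated end. The low partners Hist2h2ac and Hist3h2bb-ps have neither feature in their annotated transcripts, and nor does Hist1h2bc, the well read gene beside Hist1h2ac. The part of these features in the one-sided counts was not tested.

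The Hist3h2a promoter is shown from such a one-sided pair, in which the partner Hist3h2bb-ps is annotated as a processed pseudogene. The printed window of 300 bases is longer than the 173 bases between the pair, so not all of it lies between them. It spans chr11:58954435-58954734 on the plus strand, from 250 bases before to 50 after the start, from RefSeq in build GRCm38.p6, which is not the build named for the counts. Its capitals mark the octamer motif of H2A and H2B promoters, ATTTGCAT searched on both strands and found here as its reverse complement.
Hist3h2a promoter: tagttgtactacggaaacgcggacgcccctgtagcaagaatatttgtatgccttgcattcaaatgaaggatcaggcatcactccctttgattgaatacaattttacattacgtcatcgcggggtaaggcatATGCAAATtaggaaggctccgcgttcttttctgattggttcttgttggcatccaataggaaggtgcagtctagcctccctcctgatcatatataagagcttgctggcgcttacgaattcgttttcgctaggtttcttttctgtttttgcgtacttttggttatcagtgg

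RefSeq promoters were matched for 61 members and gave 62 windows of 300 bases. The octamer was in 7 of 17 H2A and 7 of 17 H2B windows and in none of the H1, H3 and H4 windows, 22.6% of member windows against 1.74% of all 32851 promoters. TATAAA, on both strands, was in 56.5% of member windows and 13.6% of all promoters, and CCAAT in 85.5% and 37.4%. CCAAT was in every H1, H2A, H2B and H3 window and in 3 of 12 H4 windows. The octamer did not mark the members that were read: of those of at least 1 CPM with a matched window, Hist3h2a and Hist1h2be had it and Hist3h2ba, Hist1h1c and Hist1h4h did not. Hist1h2be has 2 windows, of which 1 held it. The windows of Hist1h2bc and Hist2h2be were not matched.

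No clustered histone gene was called between genotypes. Of the 68 members, 9 had enough counts to be tested, namely the 7 of at least 1 CPM with Hist1h1e and Hist1h4i. With sex as a term, the quasi-likelihood test of edgeR gave 0 members under an adjusted p of 0.05 and 0 under an unadjusted p of 0.05. Over all 15117 genes tested, 3 were called (0.0198%), and 11.7% passed the unadjusted threshold. DESeq2, limma-voom and edgeR's likelihood ratio test also called 0 members, with 0 at an unadjusted p under 0.05. DESeq2 gave no adjusted p for Hist1h2be, Hist1h4h, Hist1h1e and Hist1h4i, so it could not call them. The self-test on simulated counts recovered 35.8% of changes of 1.5-fold and 90.8% of 2-fold, so a change of the smaller size could be missed in this design. Its changed genes were drawn from all tested genes, with the same assumed spread for every gene. These shares therefore do not give the recovery for members with few counts, in which a larger change could also be missed.

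The fold changes of the best counted members were small beside their errors. On the log2 scale, Het over WT, Hist1h2bc was at -0.08 ± 0.17 (SE), Hist3h2ba at -0.06 ± 0.25, Hist3h2a at -0.14 ± 0.18, Hist2h2be at -0.11 ± 0.19 and Hist1h1c at -0.14 ± 0.22. Hist1h2be was at -0.27 ± 0.29, Hist1h4h at 0.08 ± 0.49, Hist1h1e at 0.26 ± 0.62 and Hist1h4i at -0.39 ± 0.61. The fitted value was below 0 in 7 of 9 members and above 0 in 2, with a median of -0.11. Over all genes tested it was above 0 in 7723 of 15117, with a median of 0.0063. In 2 members, Hist3h2a and Hist1h2be, both Het libraries lay below both WT libraries, and in none above; over all genes tested 44.7% were separated in 1 direction or the other. Leaving out 1 library moved Hist3h2ba: without the male WT its log2 fold change was -0.41, and without the female WT it was 0.32. These fits have no sex term and leave WT with 1 library of 1 sex, so genotype and sex are not separated in them. The spread of that library is assumed to be that of the Het libraries, and the female WT is the highest library for this gene.

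Summed by class, H2B genes came to 72.2 ± 7.14 CPM in Het and 76.9 ± 14.1 in WT (SD, n = 2 each), H2A to 14.04 ± 1.33 and 15.2 ± 0.283, and H1 to 10.1 ± 1.26 and 10.85 ± 1.60. H4 came to 2.32 ± 0.974 and 2.79 ± 0.167, and H3 to 0.573 ± 0.253 and 0.455 ± 0.0422. Het libraries overlapped WT libraries in H1, H2B, H3, H4 and the sum of all members. In H2A the lowest WT library, at 15.04 CPM, lay just above the higher Het library, at 14.98, and their Poisson intervals overlapped. With 2 libraries against 2, an exact permutation test cannot go below a two-sided p of 0.333, so none was made. In tissue, fewer cells of a type and less RNA per cell cannot be told apart.

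No member was called between the sexes either. In the same edgeR fit, 0 of 9 members passed an adjusted p of 0.05 and 0 an unadjusted one, against 9 of all genes tested (0.0595%) and 3.82% unadjusted. DESeq2, limma-voom and the likelihood ratio test called 0 members as well. The fitted difference, female over male, had a median of 0.0062 over the 9 members (-0.0121 over all genes tested) and was -0.88 ± 0.49 for Hist1h4h, with an unadjusted p of 0.0980 in edgeR.

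The genotype difference ran in opposite directions in the 2 sexes for several members, without a call. In males Hist3h2ba was higher in Het by 0.46 on the log2 scale and in females it was -0.57; for Hist1h2bc the values were 0.26 and -0.42, and for Hist1h1c 0.14 and -0.43. Both within-sex values shared a sign in 3 of 9 members. These values set 1 library against 1 after a prior count of 2 was added, so they have no replicate check. In edgeR's test of the difference, female minus male, Hist3h2ba was at -1.04 ± 0.32 (SE; unadjusted p = 0.00959, adjusted p = 0.998) and Hist1h2bc at -0.67 ± 0.27 (unadjusted p = 0.0298, adjusted p = 0.998). Those were the 2 of 9 members under an unadjusted p of 0.05, against 3.55% of all genes tested, and 0 members were called, against 3 genes (0.0198%).

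This difference cannot be told apart from depth. The male Het and the female WT, high in this comparison, were also the 2 deepest libraries, and Hist1h2bc and Hist1h1c ordered all 4 libraries as the totals did. In Hist3h2ba, Hist1h2bc and Hist1h1c both of those libraries lay above the other 2, and in the remaining 4 members of at least 1 CPM they did not. How many of all genes show either order was not counted, so these orders are not particular to the members. The 27 cell division genes summed to 208 CPM in the male Het and 219 in the female WT, against 196 in the male WT and 195 in the female Het. Rn45s, the ribosomal RNA precursor, took 0.184% of counts in the male Het and 0.242% in the male WT. It took 0.226% in the female Het and 0.323% in the female WT. The part of such RNA in the difference was not tested.

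**Figure D5:**
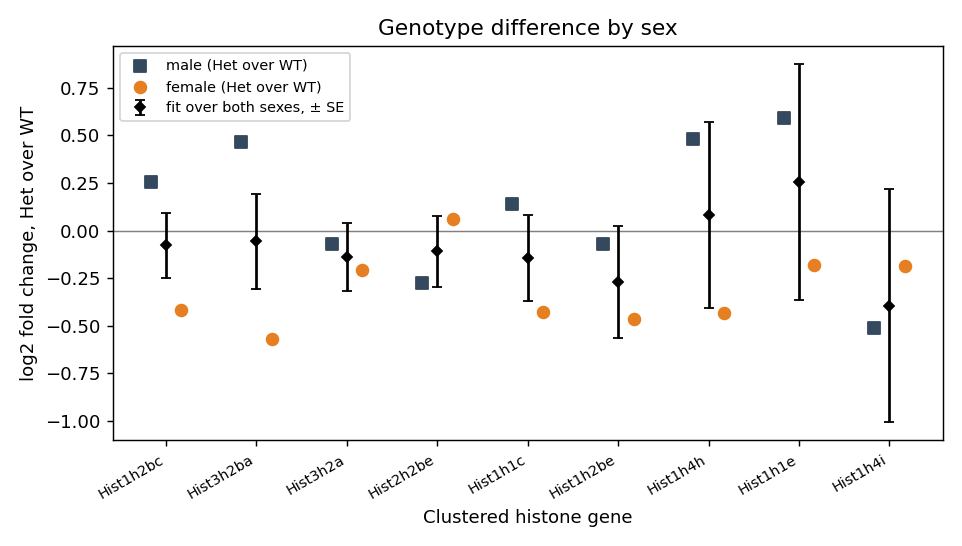
Log2 fold change, Het over WT, of the 9 tested members within males (squares, 1 library against 1), within females (circles, 1 library against 1) and from the edgeR fit over both sexes (diamonds, bars ± SE). Hist3h2ba lies at 0.46 in males and at -0.57 in females, with the fit at -0.06.

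Genes around histone supply were examined from fixed lists. Of the 18 genes of histone mRNA processing and decay, all were tested, 0 were called in either direction and 0 passed an unadjusted p of 0.05; the median log2 fold change was 0.00. Slbp, the stem-loop binding protein, stood at 26.3 CPM in the male Het, 25.7 in the male WT, 25.3 in the female Het and 22.0 in the female WT. The genes of smallest p on this list were Ctif, which acts in cap-dependent translation (log2 fold change 0.22 ± 0.14), Eri1, an exonuclease that trims histone mRNA (-0.26 ± 0.17), and Upf1, a helicase of mRNA decay (-0.16 ± 0.12).

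Of 17 histone chaperones, 0 were called and 3 passed an unadjusted p of 0.05 in edgeR, against 11.7% of all genes tested. These were Ubn2, of the HIRA complex that deposits H3.3 (-0.56 ± 0.13, adjusted p = 0.156 in edgeR), Atrx, which acts with Daxx on H3.3 (-0.33 ± 0.11, adjusted p = 0.295), and Cabin1, also of the HIRA complex (-0.27 ± 0.10, adjusted p = 0.342). Of 17 variant histone genes in the table, 11 were tested and 0 called. H3f3b had the smallest p, with 330 CPM in the male Het and 343 in the female Het against 397 in the male WT and 445 in the female WT. Its log2 fold change was -0.32 ± 0.10 with an adjusted p of 0.267 in edgeR.

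Signs of dividing cells and of RNA without a tail were looked at beside the members. Mki67, a protein of cycling cells, stood at 0.493 CPM in the male Het, 0.486 in the male WT, 0.251 in the female Het and 0.388 in the female WT, and Top2a, the topoisomerase of dividing cells, at 0.592, 0.304, 0.627 and 0.437. Of 27 cell division genes 21 were tested and 0 called, with 0 at an unadjusted p under 0.05; Pcna, the DNA polymerase clamp, was highest at 38.3 to 45.3 CPM. Of 8 RNAs without a poly(A) tail in the table, only Rn45s was tested, at 1835 CPM in the male Het, 2416 in the male WT, 2257 in the female Het and 3231 in the female WT (log2 fold change -0.45 ± 0.10, adjusted p = 0.156 in edgeR). The other listed RNAs, among them Rpph1 and Rmrp, the RNAs of RNase P and RNase MRP, had means of at most 0.312 CPM. RNA without a tail was thus present in these libraries, but only Rn45s stood above all clustered histone genes summed, with no scaling by length. The part of RNA without a tail in the counts of the lower members was not tested.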

How the data were processed

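The authors deposited raw counts of reads per gene symbol, 1 column for each of the 4 libraries, with 0 columns of other samples. Per the submitters' processing notes, the tools were STAR, featureCounts, FastQC and edgeR, and the build was mm9. Versions, strand setting, multi-mapping setting and annotation are not given in the sources used here. Genotype and sex came from the labels. Replicate numbers only name libraries (1 male, 2 female), so nothing was paired by number.

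CPM were taken over library totals. edgeR 4.0.16 (R 4.3.3) fitted the whole table: filterByExpr by genotype kept 15117 genes with 99.95% of counts, TMM factors were 0.999 to 1.00, and a robust quasi-likelihood fit used sex and genotype with 1 residual degree of freedom, moderated across genes. Two-sided p-values were adjusted over all genes tested (Benjamini-Hochberg, threshold 0.05). The standard error was the log2 fold change divided by the square root of F. The difference of the genotype effect between sexes was tested as the product of the genotype and sex codes, fitted with genotype. Alternatives were DESeq2 1.42.0, limma-voom (limma 3.58.1), the likelihood ratio test, other scalings and filters, dropped terms and left-out libraries. The fit was tested on simulated data of 15091 tested genes, with 11 false calls.

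Transcript ends and shared windows came from GENCODE M21 and promoters from RefSeq (GRCm38.p6), matched by symbol or synonym. Members of at least 1 CPM were named, with the 3 of highest count per class among the others, and from the other lists the genes of smallest p or highest level. Members and lists were chosen with earlier results of these data known. Of the tissue lists, 2 genes were called between genotypes in brainstem and midbrain neurons, 1 in pituitary and 0 in the granule cell, Purkinje cell, oligodendrocyte, precursor, astrocyte, microglia, endothelial, choroid plexus, red blood cell and skeletal muscle lists.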

Additional observations from a re-analysis of the deposited data

How the results depend on the processing

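DESeq2, limma-voom, the likelihood ratio test, scaling by DESeq2's size factors or by library totals, testing every detected gene, a filter of 1 CPM in at least 2 libraries and a dropped term each called 0 members between genotypes and 0 between sexes, and the 4 alternatives run for the difference between sexes called 0. The median log2 fold change of tested members lay between -0.11 and 0.010 under these, the latter without a filter, where 46 members were tested. With single libraries left out, the genotype fits had no sex term, so genotype and sex were not separated in them. The statement of 0 members called between genotypes does not cover those fits. Only effect sizes are given for them, since 1 genotype is left with 1 library. The median log2 fold change between genotypes ran from -0.25 to 0.014. The log2 fold change of Hist3h2ba then ran from -0.41 to 0.32, of Hist1h2bc from -0.27 to 0.13, of Hist1h1c from -0.29 to 0.020 and of Hist1h4h from -0.69 to 0.70. The log2 ratio of class sums, Het over WT, ran from -0.22 to -0.024 for H2A (main -0.12), from -0.25 to 0.055 for H1, from -0.27 to 0.11 for H2B (main -0.09), from -0.24 to 0.060 for all members (main -0.10), from -0.21 to 0.72 for H3 (main 0.33) and from -0.78 to 0.11 for H4 (main -0.27). Without Hist1h1c the H1 ratio was 0.50 (main -0.10), and without Hist3h2a the H2A ratio was 0.46, both from few counts. The main fit already matches Het and WT by sex, and the labels carry no replicate numbers that pair libraries further. At this depth, 59 members did not pass the main low-count filter. Where a genotype was left with 1 library, its spread was assumed to be that of the others.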
